A study of Mus musculus with 9 samples.

Results

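The genes of triglyceride storage and of the lipid droplet were examined by RNA sequencing in dendritic cells that had been given no exosomes, normal cell exosomes or tumor cell exosomes. They were 10 genes picked by name from the deposited gene table, with earlier results of these data known. Plin2 and Plin3 encode droplet coat proteins, Dgat1 and Dgat2 acyltransferases, Pnpla2, Lipe, Pnpla3 and Lipg lipases, and Hilpda and G0s2 lipase inhibitors. All 10 were among the 57238 entries of the table and among the 15028 genes that passed edgeR's filter on low counts. Pnpla3 passed it through its libraries of tumor exosome-treated cells, because it did not pass in a fit to the other 6 libraries alone.

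The cells were bone marrow-derived dendritic cells (BMDCs) of wild-type C57BL/6 mice, grown for 6 days, as the labels give it, with 20 ng/ml GM-CSF. All 3 groups shared this culture, and each had 3 libraries. Control (CTR) BMDCs were left without exosomes. NE-treated BMDCs were exposed for 24 hours to exosomes of NIH-3T3, a line of mouse fibroblasts that is not cancerous. TDE-treated BMDCs were exposed for 24 hours to tumor-derived exosomes, whose cell line the labels do not name. The methods of the paper trace exosomes of unspecified source to either a mouse cervical or a mouse colon carcinoma line. GM-CSF cultures of bone marrow hold macrophages and granulocytes beside dendritic cells, and the methods call the sequenced BMDCs purified without saying how. Nothing states that the libraries came from separate mice or cultures, so p-values measure only the spread between these libraries, which may be technical.

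Triglyceride is stored in lipid droplets, organelles with a core of neutral lipid under a phospholipid monolayer that carries a coat of perilipins. Acyltransferases of the endoplasmic reticulum make triglyceride from diacylglycerol and fatty acyl-CoA, the lipase encoded by Pnpla2 starts its breakdown, and the small proteins encoded by G0s2 and Hilpda bind that lipase and inhibit it. In tumors, dendritic cells that load droplets are known to present antigen poorly.

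Libraries held between 17469782 and 21092943 estimated reads on genes. Levels below are CPM, counts brought to a common library size by TMM, and 3 reads, the smallest abundance taken as measurable, correspond to between 0.142 and 0.172 CPM before that scaling, for counting error only. CTR replicate 1 stood apart, with a mean correlation of 0.87 across genes with the other CTR libraries against at least 0.941 between any pair of the other 8 libraries, so comparisons with CTR are also given without it. The quasi-likelihood test of edgeR was run on all 9 libraries and all 15028 genes, with Benjamini-Hochberg adjustment and a threshold of 0.05.

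TDE-treated BMDCs held far more RNA of Pnpla3, Lipg and Hilpda than CTR BMDCs, about 3 times as much of Dgat2, and less of Plin2, the main droplet coat gene of these cells. G0s2 was lower too, with a call that depended on the fit. Plin3, Dgat1, Pnpla2 and Lipe did not pass the test. In all, 6 of the 10 genes passed in TDE-treated against CTR BMDCs, with 4 higher and 2 lower, where 16.9% of all tested genes passed, 7.57% higher and 9.34% lower. Against NE-treated BMDCs 5 of the 10 passed, with 4 higher and 1 lower, where 13.9% of all tested genes passed, 6.73% higher and 7.21% lower. The 10 genes were chosen with earlier results of these data known, so these shares do not test the group. Both counts include Pnpla3, which passed the filter on low counts only through its TDE-treated libraries. Without CTR replicate 1, 8 of the 10 passed against CTR and 7 against NE-treated BMDCs, where 34.4% and 40.7% of all tested genes passed. For 8 of the 10 the libraries did not overlap between TDE-treated and CTR BMDCs, as for 44.0% of all tested genes, and for 8 between TDE-treated and NE-treated BMDCs, as for 54.5%. Both comparisons use the same TDE-treated libraries and are therefore not independent. The median log2 fold change over the 10 genes was -0.01 against CTR and 0.17 against NE, with medians over all tested genes of -0.05 and -0.02, so that the group did not move one way as a whole.

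**Figure D1:**
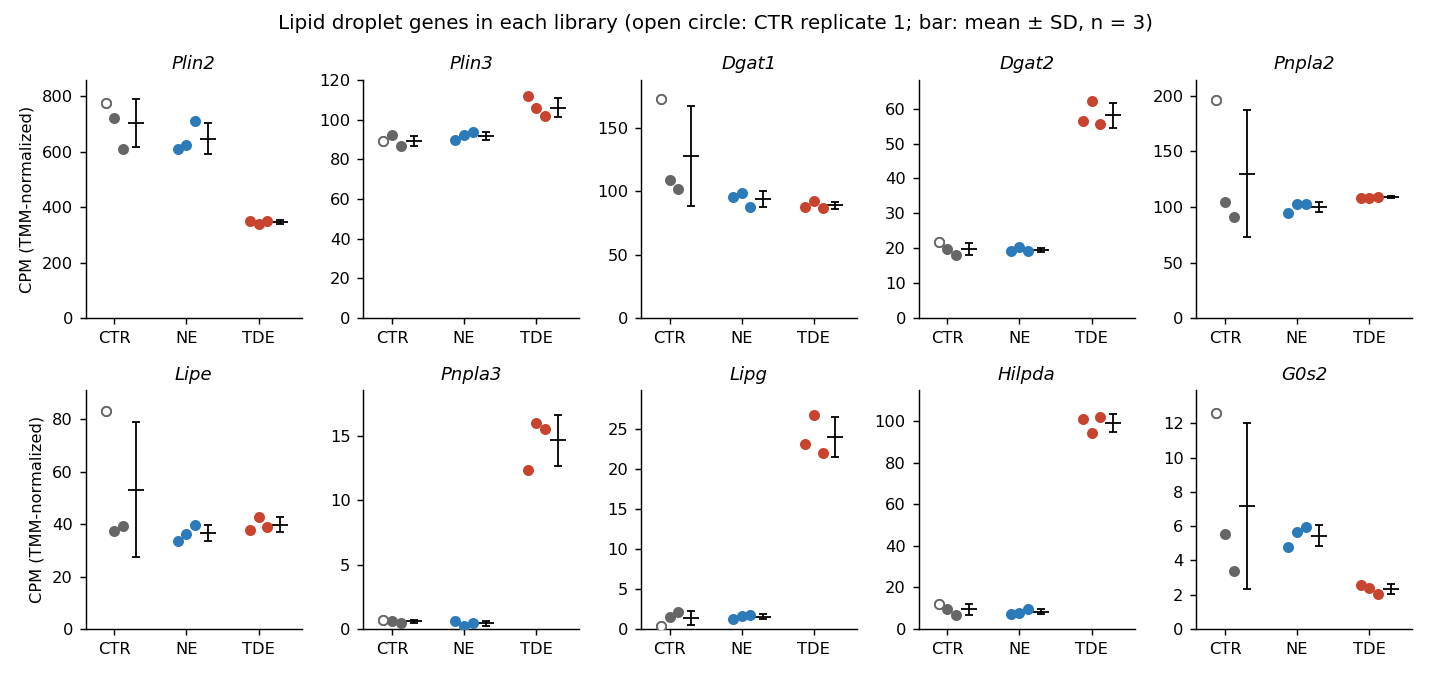
Levels of the 10 genes in every library, in CPM on linear axes that start at 0, with 1 panel per gene and the groups CTR, NE and TDE on the horizontal axis. Each circle is 1 library, the open circle is CTR replicate 1, and the bars give the mean ± SD (n = 3). The TDE-treated libraries lie above all others for Dgat2, Pnpla3, Lipg, Hilpda and Plin3 and below all others for Plin2 and G0s2, and CTR replicate 1 is the highest library for Plin2, Dgat1, Pnpla2, Lipe and G0s2.

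Perilipin 2, the coat protein found on the droplets of most cells outside fat tissue, was the most abundant of the 10 transcripts in every group. Plin2 (chr4:86648386-86670060, minus strand, GRCm38) stood at 776, 722 and 608 CPM in the CTR libraries, at 608, 624 and 710 CPM in the NE-treated libraries and at 351, 340 and 349 CPM in the TDE-treated libraries. The highest TDE-treated library lay well under the lowest of the other 6. The mean was 702 ± 85.8 CPM (SD, n = 3) with CTR and 347 ± 6.18 CPM (SD, n = 3) with TDE-treated cells, and the gene fell by 1.02 on the log2 scale (standard error 0.143, edgeR adjusted p = 0.00287). Against NE-treated BMDCs the log2 fold change of Plin2 was -0.90 (standard error 0.143, edgeR adjusted p = 0.00456). Plin2 passed in both comparisons under each of the 17 alternatives, the largest adjusted p being 0.0330. Its log2 fold change against CTR was -0.95 without CTR replicate 1.

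Perilipin 3 is a coat protein that moves from the cytosol onto young droplets. Plin3 (chr17:56277476-56292873, minus strand) measured 89.4, 92.0 and 86.9 CPM in CTR, 89.6, 92.3 and 93.8 CPM in NE-treated and 112, 106 and 102 CPM in TDE-treated BMDCs. The TDE-treated libraries did not overlap the others, although the step was small. Its log2 fold change against CTR was 0.25 (95% interval 0.01 to 0.50) and did not pass (edgeR adjusted p = 0.133). Leaving out CTR replicate 1 gave 0.24, which passed with an edgeR adjusted p of 0.031, as it did against NE-treated BMDCs, where 0.20 had an edgeR adjusted p of 0.0328. In each library the ratio of Plin2 to Plin3 per length, a quantity chosen after the values were seen, was 16.8, 15.2 and 13.5 in CTR, 13.1, 13.0 and 14.6 in NE-treated and 6.07, 6.18 and 6.63 in TDE-treated BMDCs. The TDE-treated cells thus held the lowest ratio of the 2 coat transcripts in all 3 libraries.

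The last step of triglyceride synthesis is carried out by 2 enzymes that are unrelated in sequence. Dgat1 acts in the endoplasmic reticulum, and Dgat2 acts there and at the droplet surface. Dgat2 (chr7:99153658-99182719, minus strand) measured 21.7, 19.7 and 18.2 CPM in CTR, 19.2, 20.3 and 19.3 CPM in NE-treated and 56.5, 62.2 and 55.5 CPM in TDE-treated BMDCs. CTR and NE-treated libraries lay together within 18.2 to 21.7 CPM, and all TDE-treated libraries were far above them. The log2 fold change of Dgat2 was 1.55 (standard error 0.122, edgeR adjusted p = 0.000216) against CTR, 2.92-fold, and 1.57 (standard error 0.122, edgeR adjusted p = 0.000171) against NE-treated BMDCs. Leaving out CTR replicate 1 gave 1.60 against CTR.

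Dgat1 (chr15:76502015-76511953, minus strand) measured 173, 109 and 102 CPM in CTR, 95.9, 98.9 and 87.3 CPM in NE-treated and 87.8, 92.3 and 87.2 CPM in TDE-treated BMDCs. The CTR libraries were above all 6 others, with CTR replicate 1 far above the rest of its own group, and the NE-treated and TDE-treated libraries overlapped. Its log2 fold change in TDE-treated against CTR BMDCs was -0.52 (95% interval -0.99 to -0.06) and did not pass (edgeR adjusted p = 0.11). It was smaller without CTR replicate 1, at -0.25, and passed (edgeR adjusted p = 0.0371), and without CTR replicate 3 it was -0.66 and passed too (edgeR adjusted p = 0.0465). Against NE-treated BMDCs it was -0.08, with an interval from -0.54 to 0.38.

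Dgat2 per Dgat1, a ratio of levels per length within 1 library that no scaling between libraries can move, was 0.104, 0.151 and 0.149 in CTR, 0.167, 0.172 and 0.185 in NE-treated and 0.537, 0.563 and 0.531 in TDE-treated BMDCs. All 3 groups were apart from each other, with by far the wider gap below the TDE-treated libraries. The ratio was 4.09-fold higher in TDE-treated than in CTR BMDCs (log2 difference 2.03) and 3.12-fold higher than in NE-treated BMDCs (log2 difference 1.64), each with p = 0.1 in a two-sided exact permutation test, which is the smallest p that 3 libraries against 3 allow. The ratio was chosen with earlier results of these data known, so its tests were not independent of the data. NE-treated over CTR BMDCs gave a log2 difference of 0.39 (exact permutation p = 0.1), which without CTR replicate 1 was 0.22.

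**Figure D2:**
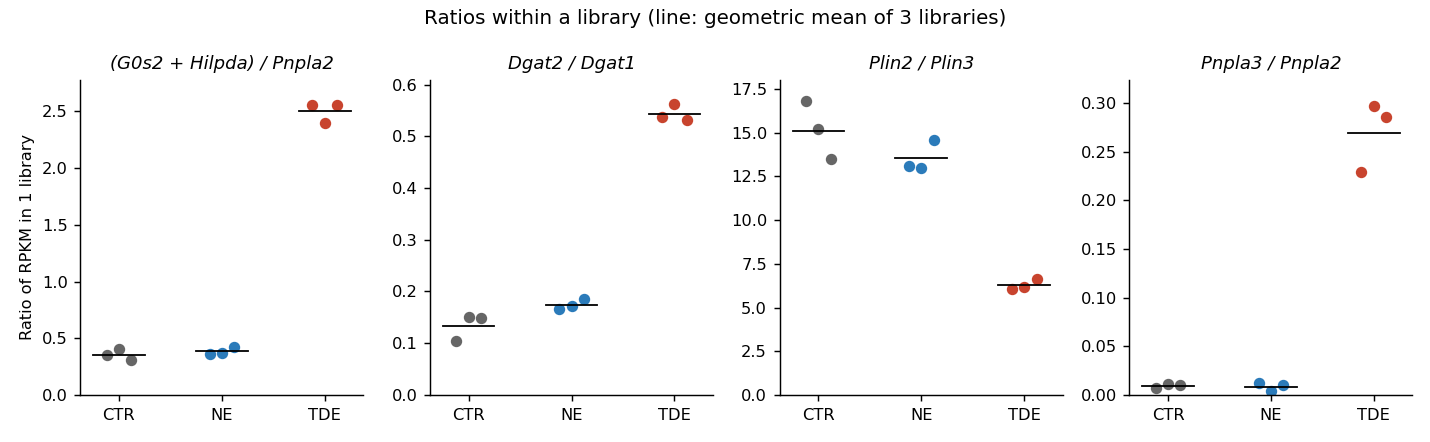
Ratios of levels per length within each library, on linear axes that start at 0, for the 3 groups. Each point is 1 library and each line the geometric mean of 3 libraries. The TDE-treated libraries lie above the others for lipase inhibitors per Pnpla2 (2.40 to 2.56), Dgat2 per Dgat1 and Pnpla3 per Pnpla2, and below the others for Plin2 per Plin3 (6.07 to 6.63).

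Of the lipase genes, the pair that carries out the first steps of droplet breakdown did not pass, and the other pair rose. Pnpla2, which encodes adipose triglyceride lipase, lies at chr7:141455198-141460743 on the plus strand. It measured 196, 104 and 91.0 CPM in CTR, 94.8, 103 and 103 CPM in NE-treated and 108, 108 and 109 CPM in TDE-treated BMDCs. Only CTR replicate 1 stood out, and the other 8 libraries lay between 91.0 and 109 CPM, with those of TDE-treated cells at the top of this range. The log2 fold change of Pnpla2 against CTR was -0.26 (95% interval -0.87 to 0.34, edgeR adjusted p = 0.489), and without CTR replicate 1 it was 0.14 (95% interval -0.04 to 0.33, edgeR adjusted p = 0.212). Against NE-treated BMDCs it was 0.12 (95% interval -0.49 to 0.72, edgeR adjusted p = 0.869).

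Hormone-sensitive lipase, the product of Lipe (chr7:25379527-25398710, minus strand), acts on diacylglycerol. Lipe measured 83.1, 37.3 and 39.2 CPM in CTR, 33.5, 36.4 and 39.5 CPM in NE-treated and 37.7, 42.9 and 38.8 CPM in TDE-treated BMDCs. Apart from CTR replicate 1, the libraries of the 3 groups overlapped. Its log2 fold change against CTR was -0.42 (95% interval -1.09 to 0.25, edgeR adjusted p = 0.33) and without CTR replicate 1 was 0.05 (95% interval -0.17 to 0.27). The deposited Lipe values were fractional in every library, and an exon of Lipe overlaps 4732471J01Rik on the opposite strand, for which between 6.25 and 14.27 reads per library were listed.

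Pnpla3 encodes adiponutrin, a droplet protein of the same family as the Pnpla2 lipase that is known from a human variant linked to fatty liver disease. It lies at chr15:84167837-84187236 on the plus strand. Only 11.06, 13 and 9 estimated reads were listed for Pnpla3 with CTR and 11, 4 and 10 with NE-treated cells, against 224, 294 and 299 with TDE-treated cells. In CPM these were 0.697, 0.587 and 0.454 in CTR, 0.584, 0.217 and 0.497 in NE-treated and 12.4, 16.0 and 15.6 in TDE-treated BMDCs. The transcript was thus a few times above the floor of 3 reads at most without tumor exosomes and readily counted with them. It rose, by a log2 fold change of 4.66 (standard error 0.334, edgeR adjusted p = 0.000142) against CTR and 5.06 (standard error 0.344, edgeR adjusted p = 9.37e-05) against NE-treated BMDCs. It was 4.79 against CTR without CTR replicate 1. Since Pnpla3 passed the filter on low counts only through the libraries where it was high, it was also fitted without any filter, which gave 4.71 (edgeR adjusted p = 3.25e-05) against CTR and 5.07 (edgeR adjusted p = 1.7e-05) against NE-treated BMDCs. An exon of Pnpla3 overlaps Gm49513 on the same strand, which was listed at 0 in every library.

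Lipg encodes endothelial lipase, a secreted lipase that acts mainly on the phospholipids of lipoproteins. It measured 0.38, 1.49 and 2.17 CPM in CTR, 1.22, 1.63 and 1.74 CPM in NE-treated and 23.1, 26.8 and 22.0 CPM in TDE-treated BMDCs. CTR replicate 1, with 6 reads, was the lowest library, and the TDE-treated libraries, with 416 to 491 reads, were far above all others. Lipg rose, by a log2 fold change of 4.12 (standard error 0.482, edgeR adjusted p = 0.00123) against CTR and 3.96 (standard error 0.477, edgeR adjusted p = 0.0013) against NE-treated BMDCs. The value against CTR was 3.71 without CTR replicate 1.

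The inhibitors of the Pnpla2 lipase went opposite ways. Hilpda, named for its induction by low oxygen and its place on the droplet, lies at chr6:29272488-29275446 on the plus strand. It measured 11.8, 9.62 and 6.66 CPM in CTR, 7.32, 7.81 and 9.70 CPM in NE-treated and 101, 94.1 and 102 CPM in TDE-treated BMDCs. CTR and NE-treated libraries were mixed with each other, and the lowest TDE-treated library was several times above them all. Hilpda averaged 9.36 ± 2.57 CPM (SD, n = 3) with CTR and 99.1 ± 4.34 CPM (SD, n = 3) with TDE-treated cells, a 10.6-fold rise and a log2 fold change of 3.41 (standard error 0.228, edgeR adjusted p = 0.000103). Against NE-treated BMDCs it was 12-fold higher, a log2 fold change of 3.58 (standard error 0.23, edgeR adjusted p = 7.17e-05). Hilpda had 3.59 against CTR without CTR replicate 1, and passed in both comparisons under each of the 17 alternatives.

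G0s2 (chr1:193272161-193273217, minus strand) encodes the best known inhibitor of this lipase. It measured 12.6, 5.51 and 3.38 CPM in CTR, 4.78, 5.64 and 5.92 CPM in NE-treated and 2.55, 2.40 and 2.04 CPM in TDE-treated BMDCs. The TDE-treated libraries, with 39 to 46 reads each, were the lowest, and the CTR libraries spread over a wider range than those of either other group. The log2 fold change of G0s2 against CTR was -1.61 (standard error 0.438, edgeR adjusted p = 0.0396), and without CTR replicate 1 it shrank to -0.95 (edgeR adjusted p = 0.0131). The call against CTR held in 8 of 17 alternatives and was lost without CTR replicate 2 and without any single NE or TDE replicate, with an edgeR adjusted p between 0.0539 and 0.141. Against NE-treated BMDCs the log2 fold change was -1.22 (95% interval -2.22 to -0.22) and did not pass (edgeR adjusted p = 0.11), whereas without CTR replicate 1, whose removal narrowed the estimate of the spread, it was -1.23 and passed (edgeR adjusted p = 0.0017), as it did without CTR replicate 3 (edgeR adjusted p = 0.0399).

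Levels of both inhibitors together per level of Pnpla2, each per length within 1 library, were 0.355, 0.405 and 0.308 in CTR, 0.358, 0.369 and 0.426 in NE-treated and 2.56, 2.40 and 2.56 in TDE-treated BMDCs. Inhibitor transcripts were outnumbered by those of the lipase in all 6 libraries without tumor exosomes and exceeded them in all 3 with them. The ratio was 7.07-fold higher in TDE-treated than in CTR BMDCs (log2 difference 2.82) and 6.53-fold higher than in NE-treated BMDCs (log2 difference 2.71), each with the smallest possible p of 0.1 in a two-sided exact permutation test. This ratio too was chosen with earlier results of these data known, so its tests were not independent of the data. Between NE-treated and CTR BMDCs the log2 difference was 0.12 (exact permutation p = 0.4). The rise of this sum came from Hilpda, since G0s2 had the opposite sign. Hilpda per G0s2, chosen after the values were seen, was 37.9 in TDE-treated BMDCs as a geometric mean and 1.31 in CTR and 1.34 in NE-treated BMDCs.

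**Figure D3:**
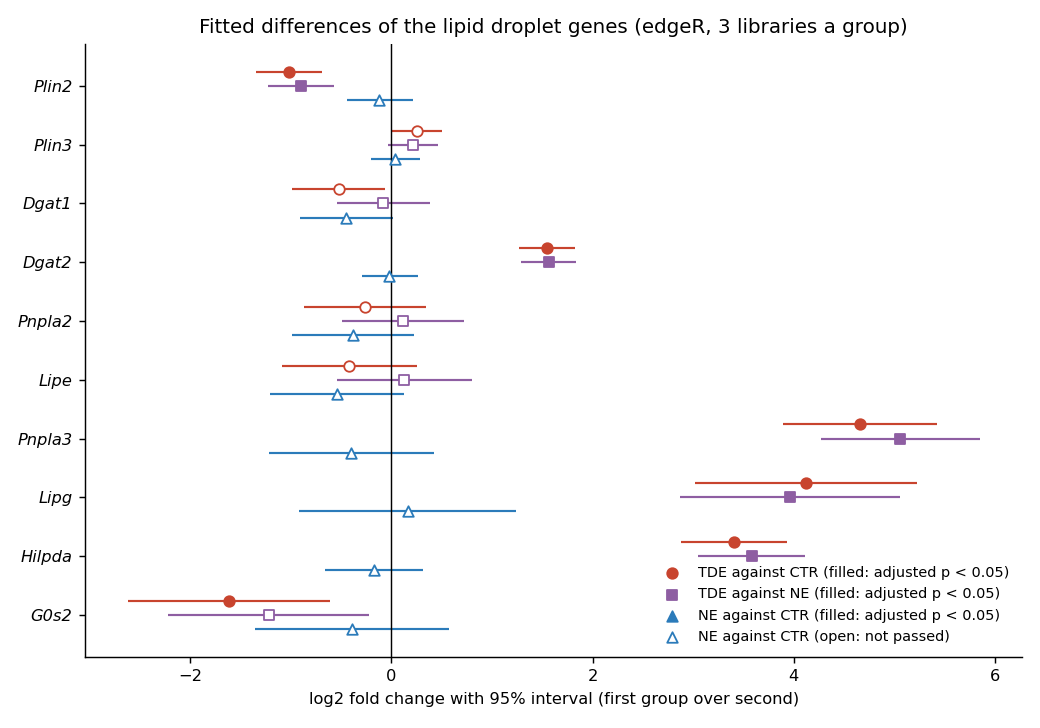
Fitted log2 fold changes of the 10 genes (horizontal axis) with their 95% intervals from edgeR, for TDE-treated against CTR (circles), TDE-treated against NE-treated (squares) and NE-treated against CTR BMDCs (triangles). Filled symbols passed an adjusted p of 0.05. Pnpla3, Lipg, Hilpda and Dgat2 lie to the right and Plin2 to the left of 0 in both comparisons of TDE-treated BMDCs, and no triangle is filled.

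NE-treated and CTR BMDCs were compared to see what exosomes of a non-cancerous cell did to the same genes. None of the 10 genes passed, where 0.0% of all tested genes did, and none had an unadjusted p under 0.05, which 487 of all tested genes (3.24%) had. None passed without CTR replicate 1, where 0.0196% of all tested genes did, and none under any other alternative, while DESeq2 called 6 and limma voom 18 genes over the whole table. The log2 fold changes ran from -0.54 for Lipe to 0.16 for Lipg. Intervals were narrow for Dgat2 (-0.29 to 0.26) and Plin3 (-0.20 to 0.28) and wider for Hilpda (-0.66 to 0.31). Those of Lipg (-0.92 to 1.24), Pnpla3 (-1.22 to 0.42), G0s2 (-1.36 to 0.57) and Lipe (-1.21 to 0.13) were wide enough to allow a change of 2-fold. That of Pnpla2 (-0.99 to 0.22) came close to it. Only Dgat1 had libraries that did not overlap between these groups, with all NE-treated libraries lower, where 7.71% of all tested genes did not overlap in one direction or the other. Its log2 fold change was -0.45 (95% interval -0.91 to 0.02) and without CTR replicate 1 was -0.17 (95% interval -0.35 to 0.01).

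Per length, the order of the 10 genes was nearly the same in CTR and NE-treated BMDCs and different in TDE-treated BMDCs. RPKM, the CPM divided by gene length in kilobases, was highest for Plin2 in CTR at 372 ± 45.5 (SD, n = 3), followed by Dgat1 at 67.9, Pnpla2 at 49.7 and Plin3 at 24.5 RPKM. Lipe at 14.3, Hilpda at 9.53, Dgat2 at 8.79 and G0s2 at 8.23 RPKM came next, with neighbours in this order overlapping across CTR libraries. Pnpla3 at 0.441 and Lipg at 0.356 RPKM overlapped too, and so did Dgat1 and Pnpla2. Within each CTR library, however, Dgat1 was above Pnpla2 and Lipe above Hilpda. The other overlapping pairs changed their order between CTR libraries. In TDE-treated BMDCs Plin2 was still first at 184 ± 3.27 RPKM (SD, n = 3), but Hilpda was second at 101 ± 4.42 RPKM (SD, n = 3). After Dgat1 at 47.2, Pnpla2 at 41.4 and Plin3 at 29.2 RPKM came Dgat2 at 25.7, Pnpla3 at 11.2, Lipe at 10.7, Lipg at 6.33 and G0s2 at 2.67 RPKM. Of these neighbours only Pnpla3 and Lipe overlapped. Among all 15028 tested genes, Hilpda was at rank 6196 by RPKM in CTR and at rank 735 in TDE-treated BMDCs, and G0s2 went from rank 6679 to rank 9764. The lengths are those in the deposited table, which for Plin2 and Dgat1 give 1888 bases each although the exons of all annotated transcripts cover 3512 and 3056 bases, so that RPKM values of different genes depend on the transcript taken.

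**Figure D4:**
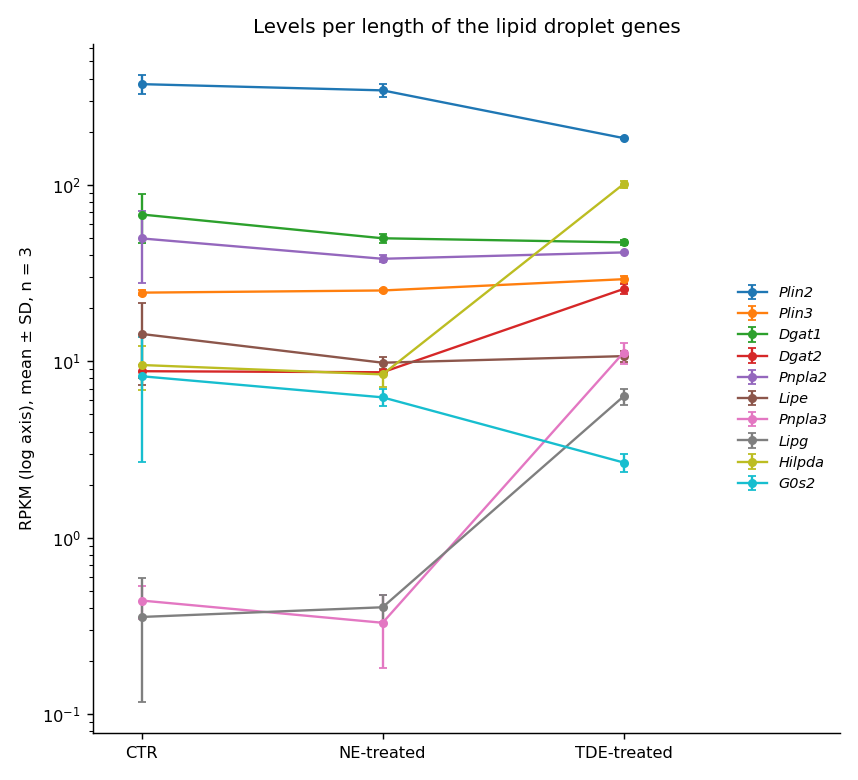
Mean RPKM ± SD (n = 3) of each of the 10 genes in CTR, NE-treated and TDE-treated BMDCs, on a logarithmic axis, with a line per gene that only links its 3 means. The lines run nearly level from CTR to NE-treated BMDCs, and Hilpda rises to 101 RPKM, the second highest level after Plin2 at 184 RPKM, in TDE-treated BMDCs.

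Sequence upstream of the genes is shown for Pnpla3, a gene that rose, for Plin2, the coat gene that fell, and for the start region of Hilpda. RefSeq promoter windows, from 250 bases before to 50 bases after a start (GRCm38.p6), were found for 7 of the 10 genes, with 9 windows. Dgat1, Dgat2 and Lipg had no entry. Capitals mark the letters ACGTG and GCGTG, the core of the hypoxia response element, on either strand (CACGT and CACGC are their complements), and in the first Hilpda stretch also TGANTCA, the AP-1 motif. The Pnpla3 stretch is the 250 bases before its start (chr15:84167566-84167815, plus strand), and the Plin2 stretch is the 250 bases before its start with the first 2 bases after it (chr4:86670058-86670309, minus strand). The Hilpda stretches (chr6:29272495-29272522, chr6:29272573-29272597 and chr6:29272608-29272632, plus strand) lie between and around its 2 RefSeq starts, the first 2 of them in annotated exon and the last partly so.
Pnpla3 before the start: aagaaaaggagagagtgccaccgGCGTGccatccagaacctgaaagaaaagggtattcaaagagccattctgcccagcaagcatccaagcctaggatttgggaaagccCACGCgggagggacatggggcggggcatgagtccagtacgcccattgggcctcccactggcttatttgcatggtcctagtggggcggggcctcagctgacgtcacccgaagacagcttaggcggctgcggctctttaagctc
Plin2 before the start: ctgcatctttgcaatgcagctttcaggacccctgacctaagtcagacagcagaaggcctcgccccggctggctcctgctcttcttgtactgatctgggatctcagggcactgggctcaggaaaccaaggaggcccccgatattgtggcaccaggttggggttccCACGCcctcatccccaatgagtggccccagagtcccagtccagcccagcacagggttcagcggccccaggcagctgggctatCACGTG
Hilpda first stretch: cagTGAATCAaccgcgagccGCGTGctt
Hilpda second stretch: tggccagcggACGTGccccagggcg
Hilpda last stretch: ggttcggtacGCGTGcgcagtctcc

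Pnpla3 and Hilpda, which rose, and Plin2, which fell, all carried these letters. ACGTG was found in windows of Hilpda, Lipe and Plin2, and in 19.6% of all 32851 mouse promoter windows. GCGTG was found in windows of G0s2, Hilpda, Lipe, Plin2 and Pnpla3, and in 32.4% of all windows. Hilpda alone of the 7 genes had TGANTCA, which 7.81% of all windows hold. Every one of the 7 had the NF-kB motif, GGG and CC with 5 bases between, and so did 50.8% of all windows. TTGCNNAA (C/EBP, 10.8% of all windows), TATAAA (the TATA box, 13.6%) and AGGTCA repeated directly with 1 base between (the form bound by peroxisome proliferator-activated receptors, 0.0396%) were in none of the 9 windows. All motifs were searched on both strands, where CACGTG counts as ACGTG on each, and such matches describe letters only.

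The annotation in the deposited table puts 7 of the 10 genes at the lipid droplet by Gene Ontology, namely Plin2, Plin3, Hilpda, Pnpla2, Pnpla3, Dgat2 and Lipe. In the KEGG column, 5 of the 10 are listed under glycerolipid metabolism, and Plin2 is the only one listed under PPAR signaling. Of these 5, Dgat2, Pnpla3 and Lipg rose in TDE-treated against CTR BMDCs, where 7.57% of all tested genes were higher, and Dgat1 and Pnpla2 did not pass. Pnpla3 passed the filter on low counts only through its TDE-treated libraries. The 5 were picked with earlier results known and the rest of the pathway was not counted, so they do not describe it.

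To see how the rest of the machinery stood, 52 further genes of droplet coat and assembly, lipid synthesis, lipolysis and lipoprotein secretion were counted, of which 39 were tested. This list too was chosen with earlier results of these data known. In TDE-treated against CTR BMDCs 2 of the 39 were higher and 7 lower, beside shares over all tested genes of 7.57% higher and 9.34% lower, and the median log2 fold change of the 39 was -0.13. The lower genes lay mostly among lipolysis and its regulators, where 6 of 14 were lower and none higher, with a median of -0.72 beside -0.05 over all tested genes. Of 11 genes of coat and assembly none passed, and of 13 genes of synthesis 2 were higher and 1 was lower. Without CTR replicate 1, 6 of 40 were higher and 13 lower, where 34.4% of all tested genes passed. By class, 5 of 13 genes of synthesis were then higher and 3 lower, and 1 of 11 of coat and assembly was higher and 1 lower. Of 15 genes of lipolysis and its regulators, 9 were lower and 0 higher. Against NE-treated BMDCs 2 of the 39 were higher and 7 lower, where 6.73% of all tested genes were higher and 7.21% lower, and without CTR replicate 1 it was 7 and 12 of 40, where 40.7% passed. Between NE-treated and CTR BMDCs none of the 39 passed by edgeR, none having an unadjusted p under 0.05, while limma voom and DESeq2 called none of them either.

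Lpl, the lipoprotein lipase that releases fatty acids from lipoproteins outside the cell, measured 4310, 2230 and 2280 CPM in CTR, 2580, 2540 and 2720 CPM in NE-treated and 1120, 998 and 1060 CPM in TDE-treated BMDCs. The TDE-treated libraries were the lowest by a wide margin, and the log2 fold change of Lpl against CTR was -1.47 (standard error 0.26, edgeR adjusted p = 0.00738) and -1.10 without CTR replicate 1. Angptl4, a secreted inhibitor of lipoprotein lipase, fell with a log2 fold change of -2.70 (edgeR adjusted p = 0.00115) from 14.1 ± 6.43 to 2.16 ± 0.121 CPM (SD, n = 3). Mgll, the lipase for monoacylglycerol, fell with a log2 fold change of -1.46 (edgeR adjusted p = 0.000521) from 34.9 ± 2.63 to 12.6 ± 1.75 CPM (SD, n = 3). In the other direction, Lpin2, a phosphatase that makes diacylglycerol, had a log2 fold change of 0.78 (edgeR adjusted p = 0.0277) and Agpat1, which makes phosphatidic acid, of 0.48 (edgeR adjusted p = 0.045). With CTR replicate 1 left out the values against CTR were -2.27 for Angptl4, -1.41 for Mgll, 0.59 for Lpin2 and 0.55 for Agpat1, and all of them passed. In the comparison with CTR, Lpl, Angptl4 and Mgll passed in each of 17 alternatives, Lpin2 in 7 and Agpat1 in 6. In that with NE-treated BMDCs, Lpl passed in 14 of 17. Agpat2, Ces1d, Lipa and Nceh1, named here only after their values were seen, were the other genes that fell. Against CTR, Agpat2 passed in 10, Lipa in 9 and Nceh1 in 9 of 17 alternatives, and Ces1d in each of the 16 that tested it. The genes that passed against NE-treated BMDCs were partly others. Lpin2 and Agpat2 did not pass there (edgeR adjusted p = 0.0923 and 0.135). Agpat3 (log2 fold change 0.78, edgeR adjusted p = 0.0245) and Lpin1 (-0.79, edgeR adjusted p = 0.0286), also named after their values were seen, passed there but not against CTR. Lipa encodes the acid lipase of lysosomes and Nceh1 a hydrolase of cholesterol esters, so that not all of the falling genes act on droplet triglyceride. Ces1d had under 5 CPM and belongs to a family of similar genes whose reads may be split.

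**Figure D5:**
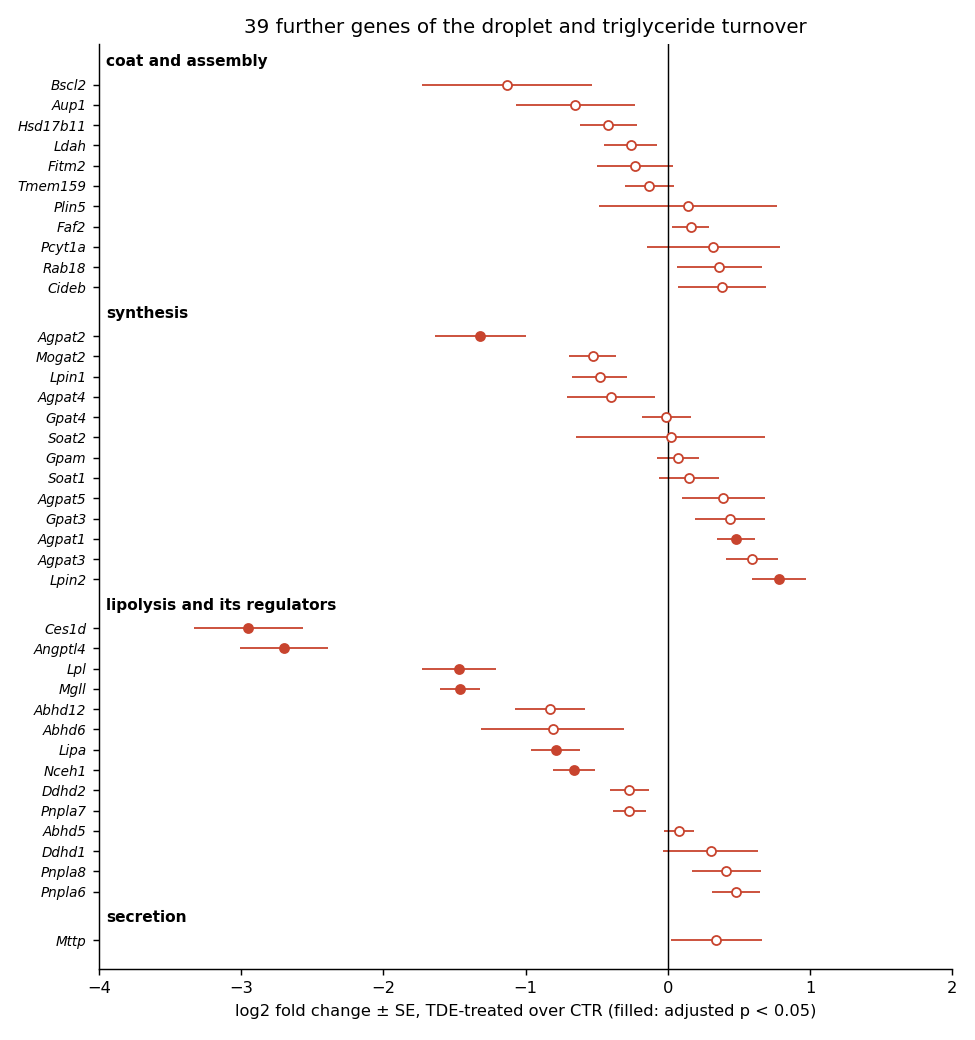
Log2 fold change ± SE of the 39 further genes that were tested, TDE-treated over CTR BMDCs, in their 4 classes. Filled circles passed an adjusted p of 0.05, which 6 of 14 genes of lipolysis and its regulators did, all to the left of 0.

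Some markers of the cells that such cultures can hold differed between the groups as well. In bulk RNA, fewer cells of a type and less RNA per cell cannot be told apart. Of 8 dendritic cell markers 5 were lower in TDE-treated than in CTR BMDCs and none higher, with none of the 8 at 0. The sum of the 8 was 4130 to 12700 CPM in CTR, 3940 to 4930 CPM in NE-treated and 2110 to 2230 CPM in TDE-treated BMDCs. Cd74 was its largest part, at 8680, 2630 and 2060 CPM in CTR and 843, 890 and 867 CPM in TDE-treated BMDCs. Flt3 (11.6, 14.6 and 16.0 CPM in CTR, 13.7, 14.8 and 14.2 CPM in TDE-treated) and Zbtb46 overlapped between these groups. Of 8 granulocyte markers 7 were lower, from 6940 to 28000 CPM in CTR and 7320 to 10600 CPM in NE-treated to 3020 to 3310 CPM in TDE-treated BMDCs, none being at 0. Against NE-treated BMDCs 3 of the dendritic cell and 5 of the granulocyte markers were lower and none higher. Over all tested genes 9.34% were lower against CTR and 7.21% against NE-treated BMDCs. The highest CTR value of both sums belonged to CTR replicate 1, which was also the highest library for G0s2, Lipe, Pnpla2, Dgat1 and Plin2. Of 8 macrophage markers Adgre1 was higher and C1qb lower in TDE-treated than in CTR BMDCs. The sum of the 8 was 3530 to 3800 CPM in CTR, 3330 to 3790 CPM in NE-treated and 4820 to 5180 CPM in TDE-treated BMDCs. The higher sum was that of Adgre1, which measured 206, 447 and 480 CPM with CTR and 2260, 2110 and 2310 CPM with TDE-treated cells. The other 7 macrophage markers summed to 3090 to 3590 CPM in CTR, 2930 to 3320 CPM in NE-treated and 2700 to 2870 CPM in TDE-treated BMDCs. The part of these markers in the fall of Plin2 and G0s2 or in the rise of Hilpda, Pnpla3, Lipg and Dgat2 was not tested.

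Of 8 adipocyte markers Lep, Cidea and Cidec were at 0 in all 9 libraries, Adipoq reached at most 0.0546 CPM, and the sum of the 8 did not exceed 2.15 CPM in any library, against 12.4 CPM or more for Pnpla3 in each TDE-treated library. Fibroblast markers, from the cell type that gave the NE exosomes, summed to 6.46 to 7.61 CPM in CTR and 6.29 to 7.71 CPM in NE-treated BMDCs. In TDE-treated BMDCs their sum was 10.8 to 11.8 CPM. Dcn and Pdgfrb, 2 of 6 tested markers, were higher in TDE-treated than in CTR BMDCs, as 7.57% of all tested genes were. Against NE-treated BMDCs 1 of the 6 was higher, where 6.73% of all tested genes were. Epithelial markers summed to 4.37 to 7.05 CPM and melanocyte markers to at most 0.382 CPM in TDE-treated BMDCs, below their highest sums in CTR of 8.9 and 3.04 CPM. Of 2 tested epithelial markers 1 was lower against CTR and 1 against NE-treated BMDCs, beside 9.34% and 7.21% of all tested genes. No melanocyte marker was tested.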

How the data were processed

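RNA of BMDCs had been sequenced in 9 libraries, 3 per group. The authors deposited estimated counts (expected counts) per gene without normalization, with gene lengths, annotation and group means, the last of which entered no test. The submitters' processing notes name TopHat2 2.1.1, DESeq2 1.24.0 and R 3.3.1. The counting program, genome build, annotation and strand setting are not given in the sources used here. No per-sample column was left unused (0 columns), and 1702 entries carry no gene symbol. The labels give 6 days of culture, and the methods of the paper a longer one.

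Estimated counts were rounded, filtered with filterByExpr, normalized by TMM and fitted with edgeR 4.0.16 (R 4.3.3), with 1 mean per group and no covariate. The standard error is the size of the log2 fold change over the square root of F. RPKM is CPM per kilobase of the deposited length. Ratios within a library were compared by two-sided exact permutation tests in scipy 1.17.1. As alternatives, DESeq2 1.42.0, library totals alone, median-ratio factors, a minimum of 10 counts in every library, no filter, a fit to 6 libraries, a replicate block, limma 3.58.1 voom with sample weights, and each library left out were run. The 10 genes, the lists and the ratios were chosen with earlier results of these data known. All 10 genes are named, and of the 52 further genes the 3 largest rises and the 3 largest falls among those past the threshold with at least 5 CPM on average. Only 2 of the rising genes met this. Positions come from GENCODE vM21 (GRCm38), promoter sequence from RefSeq (GRCm38.p6). On data simulated with the dispersion of the 9 libraries for TDE-treated against CTR BMDCs, 14757 genes in all, edgeR called 92 of 100 genes changed by 2 and 17 of 100 changed by 1 on the log2 scale, and 10 unchanged genes. With the dispersion without CTR replicate 1 (14760 genes) it called 100 of 100 of either size and 7 unchanged genes. Both simulations had all 9 libraries and 1 dispersion for every gene and library, and changed only genes above 5 CPM on average. The real libraries differ in spread between genes and groups, so these shares are not the power of the fits above. Python 3.11.15, numpy 2.4.6, pandas 2.3.3 and matplotlib 3.10.9 made tables and plots.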

Additional observations from a re-analysis of the deposited data

How the results depend on the processing

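Of 503 log2 fold changes of the 10 genes under an alternative, 463 kept their direction and their side of the threshold, 9 no longer passed, 15 newly passed and 16 changed sign. The 9 all belong to G0s2 in TDE-treated against CTR BMDCs. Each of the 16 is a value that did not pass in either fit. Library totals alone gave Plin2 0.02 and Dgat2 0.12 in NE-treated against CTR BMDCs and moved the median of all genes there to 0.124, Dgat2 was 0.02 without a filter and 0.02 with voom, and voom gave G0s2 0.04 and Lipg -0.13. In TDE-treated against CTR BMDCs voom gave Pnpla2 0.09 and Lipe 0.06. With each library left out in turn, NE-treated against CTR values ran from -0.36 to 0.02 for Hilpda, from -0.72 to 0.29 for G0s2, from -0.58 to 0.03 for Pnpla2, from -0.07 to 0.05 for Dgat2 and from -0.25 to 0.65 for Lipg, and in TDE-treated against CTR BMDCs from -0.46 to 0.14 for Pnpla2 and from -0.61 to 0.05 for Lipe. The ends past 0 came without CTR replicate 1, and Dgat2 was also at 0.00 without NE replicate 1.

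Of the 10 genes, 5 to 8 passed against CTR, 5 to 7 against NE-treated BMDCs and 0 between NE-treated and CTR BMDCs with libraries left out. With at least 10 counts in every library 3 of 8 passed against NE-treated BMDCs, because Pnpla3 and Lipg fell under that filter, and in the fit to CTR and NE-treated libraries alone Pnpla3 was not tested. Log2 differences ran from 2.72 to 2.92, 2.66 to 2.78 and 0.02 to 0.21 for inhibitors per Pnpla2 and from 1.86 to 2.12, 1.61 to 1.68 and 0.22 to 0.48 for Dgat2 per Dgat1, in the order TDE-treated against CTR, TDE-treated against NE-treated and NE-treated against CTR.

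The 52 further genes were less stable. Those higher against CTR numbered 4 with DESeq2, 0 without a filter, 0 in the fit to 6 libraries, 8 with voom and 0 to 6 with libraries left out. Those lower against CTR numbered 4 in the fit to 6 libraries, 14 with voom and 4 to 13 with libraries left out. Against NE-treated BMDCs the higher genes numbered 5 with DESeq2, 1 without a filter, 8 in the fit to 6 libraries, 11 with voom and 0 to 7 with libraries left out, and the lower genes 12, 15 and 5 to 12 in the last 3 of these. The most were found without CTR replicate 1 in each of these ranges. The cause was not tested.

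Nothing states what a shared replicate number means. After removal of group means, same-numbered libraries had a mean correlation of -0.00623 for TDE and CTR and -0.0279 for TDE and NE. For NE and CTR libraries it was -0.257 (range -0.585 to 0.185). With 3 libraries per group these values cannot exclude a shared mouse, culture or day. Same-numbered libraries were not treated as pairs, because the methods of the paper name no covariate. With a replicate block 5 of the 10 genes passed against CTR and 5 against NE-treated BMDCs, G0s2 against CTR being lost (adjusted p = 0.0887), and of the 52 further genes 0 were higher and 4 lower against CTR and 0 higher against NE-treated BMDCs. Over all genes it gave 1285 calls in place of 2541 against CTR, and 1175 in place of 2095 against NE.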

Other observations

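The lipid droplet as a whole was looked at through the Gene Ontology column of the deposited table, a list chosen after the data were seen. Apart from the 10 genes it names 105 genes at the lipid droplet, of which 55 were tested. Of these, 1 was higher and 5 were lower in TDE-treated against CTR BMDCs by edgeR, a share of 10.9% where 16.9% of all tested genes passed, and 4 were higher and 8 lower against NE-treated BMDCs, a share of 21.8% where 13.9% passed. Without CTR replicate 1, 9 of 56 were higher and 18 lower against CTR, a share of 48.2% where 34.4% of all tested genes passed, and 11 were higher and 20 lower against NE-treated BMDCs, a share of 55.4% where 40.7% passed.

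Alox15, a lipoxygenase that oxidizes polyunsaturated fatty acids, fell from 14.1 ± 4.70 CPM (SD, n = 3) in CTR and 15.9 ± 2.92 CPM (SD, n = 3) in NE-treated to 2.07 ± 0.246 CPM (SD, n = 3) with TDE treatment, a log2 fold change of -2.77 against CTR (edgeR adjusted p = 0.000788). Among the other lower genes, Trap1 had a log2 fold change of -0.69, Prpf19 of -0.66 and Ces1d of -2.95. Leaving out CTR replicate 1 gave -3.02 for Alox15, -0.49 for Trap1, -0.52 for Prpf19 and -2.76 for Ces1d, and each still passed. Pitpnm1, a phosphatidylinositol transfer protein, was the 1 higher gene, with a log2 fold change of 0.50 (edgeR adjusted p = 0.0217), and 0.52 without CTR replicate 1.

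Hilpda per Plin2, a ratio of levels per length within each library chosen after the values were seen, had a geometric mean of 0.0251 with CTR, 0.0245 with NE and 0.549 with TDE libraries. Pnpla3 per Pnpla2, also chosen after the values were seen, had a geometric mean of 0.00928, 0.00796 and 0.269 in the same order.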
